A study of Homo sapiens with 8 samples.

Results

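The 43 mitosis and G2/M genes described here encode the machinery that takes a cell from the end of DNA replication through division, and they were chosen by name: every row of the deposited gene tables whose gene name is on a list of 43 symbols, out of 55765 symbols in all. All 43 were found, each with 1 row per library, and all 43 passed the filter on low values (a mean of at least 1 TPM, a length-scaled share of all transcripts, over the 8 libraries), which 14650 symbols passed. RNA-seq was made from Kasumi-1 and NB4, human acute myeloid leukaemia lines that carry the RUNX1-RUNX1T1 and the PML-RARA fusion. Each line gave 1 library after 6, 12 and 24 h with 40 uM chlorprothixene, a thioxanthene antipsychotic that blocks dopamine receptors, and 1 untreated library. No condition has a replicate, no vehicle is named, and the untreated libraries carry no time of harvest, so that drug and hours in culture cannot be told apart. The cells are bulk cultures, in which fewer cells in G2 or mitosis and less RNA per such cell cannot be told apart either.

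Entry into mitosis is driven by cyclin B bound to CDK1, which the CDC25 phosphatases switch on and WEE1 holds back. The spindle checkpoint then keeps the anaphase-promoting complex (APC/C) silent until every kinetochore is attached, after which CDC20 turns it on and securin and cyclin B are destroyed. Transcripts of this machinery build up late in the cycle: the DREAM complex holds the genes silent in resting and G1 cells, and the MuvB core with MYBL2 (B-MYB) and later FOXM1 switches them on, largely through the CHR element and NF-Y boxes of their promoters. All 43 genes had RNA in every library, with a lowest value of 14.6 TPM (CDC25C, NB4 at 24 h) and a highest of 470.9 TPM (BUB3, untreated NB4).

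The promoters of these genes shared letters that the choice by name did not use. RefSeq promoter windows of GRCh38.p14, 250 bases before to 50 after a start, were matched for 35 of the 43. TTTGAA, the letters of the CHR element, lay on either strand in 24 of the 35, against 18.2% of 27305 symbols with such a window. CCAAT, the letters bound by NF-Y, lay in 27 of the 35, against 39.7%, and both lay in 20 of the 35, against 7.26%. For a gene with several starts, a match in any window was counted, and no pair of TTTGAA and CCAAT overlapped in the windows printed below. The windows below show the range of matches, with both motifs and their reverse complements in capitals. PLK1 (chr16:23678639-23678938, plus strand) has 1 of each near the start, and CDC20 (chr1:43358731-43359030, plus strand) has 2 of each. CDK1 (chr10:60778228-60778527, plus strand, 1 of 2 windows) has 3 TTTGAA and 2 CCAAT. CDC25B (chr20:3796060-3796359, plus strand, 1 of 4 windows) and MYBL2 (chr20:43666864-43667163, plus strand) are shown because their RNA stood apart in Kasumi-1, as given below. The CDC25B window holds 1 CCAAT and no TTTGAA, and the MYBL2 window holds neither. The windows of CENPE, CKAP2 and KIF2C hold neither as well. A link between these motifs and the course of the RNA was not tested. A match is a run of letters and not a measured binding site.
PLK1: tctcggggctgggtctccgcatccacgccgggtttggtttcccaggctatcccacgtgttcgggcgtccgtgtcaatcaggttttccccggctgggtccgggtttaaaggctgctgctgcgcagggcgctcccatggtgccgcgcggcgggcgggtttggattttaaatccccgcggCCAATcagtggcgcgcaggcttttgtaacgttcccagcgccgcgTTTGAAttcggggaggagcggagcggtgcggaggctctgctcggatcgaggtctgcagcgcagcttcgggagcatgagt
CDC20: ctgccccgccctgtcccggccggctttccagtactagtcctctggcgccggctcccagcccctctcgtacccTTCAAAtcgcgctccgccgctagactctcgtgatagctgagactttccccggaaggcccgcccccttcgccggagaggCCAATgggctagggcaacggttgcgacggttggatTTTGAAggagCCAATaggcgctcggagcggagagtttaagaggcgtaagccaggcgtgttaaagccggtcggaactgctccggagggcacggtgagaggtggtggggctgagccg
CDK1: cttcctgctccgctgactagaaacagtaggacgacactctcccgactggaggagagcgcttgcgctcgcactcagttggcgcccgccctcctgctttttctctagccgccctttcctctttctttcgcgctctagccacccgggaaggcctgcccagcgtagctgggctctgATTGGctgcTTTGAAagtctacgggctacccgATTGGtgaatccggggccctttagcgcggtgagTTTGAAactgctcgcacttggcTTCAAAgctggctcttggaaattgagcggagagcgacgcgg
CDC25B: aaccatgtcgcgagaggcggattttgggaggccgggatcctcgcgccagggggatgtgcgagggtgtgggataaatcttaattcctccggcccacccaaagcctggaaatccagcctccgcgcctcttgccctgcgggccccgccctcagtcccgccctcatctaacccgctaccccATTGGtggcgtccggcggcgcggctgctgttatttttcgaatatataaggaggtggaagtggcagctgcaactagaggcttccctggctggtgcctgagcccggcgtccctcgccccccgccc
MYBL2: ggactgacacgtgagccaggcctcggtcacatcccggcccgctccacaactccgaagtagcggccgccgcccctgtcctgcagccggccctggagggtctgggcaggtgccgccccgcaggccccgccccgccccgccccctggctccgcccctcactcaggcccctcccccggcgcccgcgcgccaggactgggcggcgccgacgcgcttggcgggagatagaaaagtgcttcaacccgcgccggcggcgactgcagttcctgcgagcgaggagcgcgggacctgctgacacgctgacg

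Mitochondrially encoded genes took 17.1% of all TPM in Kasumi-1 at 24 h and 5.04% to 10.6% in the other 7 libraries. Because TPM sums to the same total in every library, this share lowers every other gene of that library, and values rescaled without the mitochondrially encoded and the 10 most abundant genes are given beside the counts and medians they move most. Marker genes set the lines apart: the progenitor genes KIT and CD34 summed to 90.8 to 561.6 TPM in Kasumi-1 and to at most 0.340 TPM in NB4, and the granule genes MPO, ELANE, AZU1 and PRTN3 to 13409 to 20791 TPM in Kasumi-1 and 1806 to 6154 TPM in NB4. The myeloid genes SPI1 and CD33 summed to 180.9 to 281.7 TPM in Kasumi-1 and 283.9 to 384.0 TPM in NB4. CD3E, of T cells, and KRT18, of epithelia, never passed 1 TPM. The marker sums also differed with time: in the order untreated, 6, 12 and 24 h, KIT and CD34 summed to 561.6, 90.8, 151.6 and 249.1 TPM for Kasumi-1, and the granule genes to 17969, 20791, 14809 and 13409 TPM for Kasumi-1 and 6154, 4040, 2484 and 1806 TPM for NB4. Single markers did not all follow their sums. ELANE was at most 0.759 TPM in NB4 but 415.5 to 1495 TPM in Kasumi-1. In Kasumi-1 AZU1 was above untreated at every time and PRTN3 below it. At 6 h there, SPI1 was at 263.4 TPM against 132.4 TPM untreated, and CD33 at 18.3 TPM against 48.5 TPM. The part of these marker differences, between lines and times, in the results below was not tested. The deposited read coverage of a member had a median of 147.8 to 228.7 per library and was lowest for CENPA, at 16.4 to 32.0, so that no member's value rests on a handful of reads.

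As a whole the 43 genes ran opposite courses in the lines at 6 and 12 h and were below untreated in both at 24 h. Their TPM summed to 4675.1 in untreated Kasumi-1 and to 3712.7, 4101.6 and 4126.9 after 6, 12 and 24 h. In NB4 the sum was 4967.8 untreated and 5833.8, 5909.6 and 4307.0 after 6, 12 and 24 h. Relative to the untreated library the sum was thus 0.794, 0.877 and 0.883 times for Kasumi-1 and 1.17, 1.19 and 0.867 times for NB4. The Kasumi-1 sum was lowest at 6 h, and the NB4 sum was above untreated for 12 h and below it at 24 h. Rescaled, the Kasumi-1 ratio at 24 h was 0.975, while the other 5 ratios were 0.792 and 0.905 for Kasumi-1 and 1.16, 1.19 and 0.865 for NB4.

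**Figure D1:**
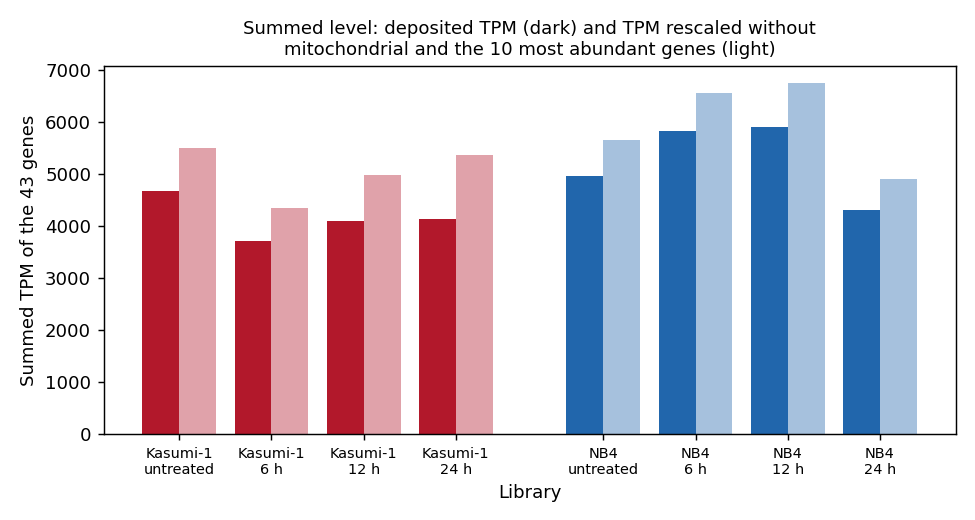
Summed TPM of the 43 genes (y axis, TPM) in each library (x axis), Kasumi-1 in red and NB4 in blue. Dark bars are deposited TPM, and light bars are TPM rescaled without the mitochondrially encoded and the 10 most abundant genes. As deposited, Kasumi-1 is lowest at 6 h, at 3712.7, and NB4 is highest at 12 h, at 5909.6, and lowest at 24 h, at 4307.0.

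Gene by gene the same courses held for most members. In Kasumi-1, 39, 32 and 31 of the 43 were below untreated at 6, 12 and 24 h, by any size, against 50.9%, 56.3% and 53.4% of all genes tested. The median difference of log2(TPM + 1) from untreated was -0.23, -0.18 and -0.13 for the members and -0.01, -0.08 and -0.04 for all genes. In NB4, 5, 7 and 32 of the 43 were below untreated, against 50.5%, 47.1% and 49.5% of all genes, with medians of 0.25, 0.33 and -0.21 for the members and 0.00, 0.01 and 0.00 for all genes. After rescaling, 18 of the 43 were below untreated in Kasumi-1 at 24 h (43.7% of all genes) and the members' median was 0.02, so the direction in that library depends on the scale.

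The NB4 course was shared by most of the genes. There, 24 of the 43 genes were above untreated at 6 and 12 h and below it at 24 h, a course that 7.44% of all genes took, and 25 after rescaling. Between 12 and 24 h, 41 of the 43 were lower at 24 h (53.0% of all genes), with a median step of -0.49 on the log2 scale against -0.02 for all genes. Of these, 16 were at least 1.5-fold lower, as 4.89% of all genes were, and 0 were at least 1.5-fold higher. AURKB and MYBL2 were higher at 24 h than at 12 h. The highest NB4 library was that of 12 h for 26 genes (22.6% of all genes) and the lowest that of 24 h for 31 (28.6%). In Kasumi-1 the lowest library was that of 6 h for 23 of the 43 (19.4% of all genes), and for 28 after rescaling (24.7%). There, 27 of the 43 were below untreated at all 3 times (36.0% of all genes), but 14 after rescaling (31.3%).

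**Figure D2:**
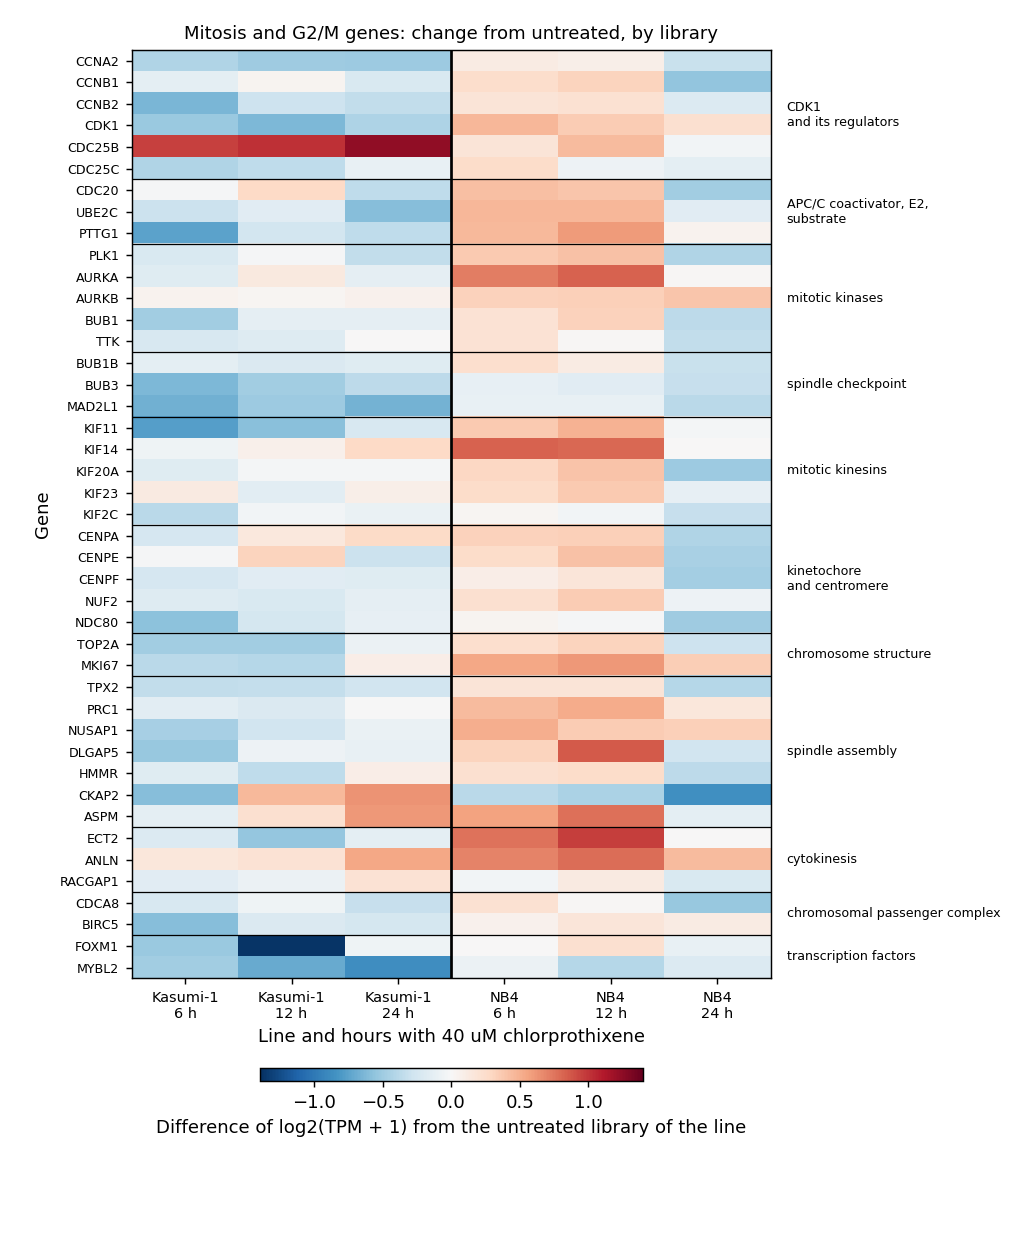
Log2(TPM + 1) minus that of the line's untreated library, for each of the 43 genes (rows, grouped by role) in the 3 treated libraries of Kasumi-1 (left) and of NB4 (right). Blue is below and red above untreated. Kasumi-1 is mostly blue at 6 h (39 of 43), NB4 mostly red at 6 and 12 h (5 and 7 of 43 below) and mostly blue at 24 h (32 of 43).

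These steps were small. At least 2-fold differences from untreated were seen for FOXM1 (lower) and CDC25B (higher) in Kasumi-1 at 12 h, where 3.52% of all genes were as much lower and 4.85% as much higher, and for CDC25B (higher) in Kasumi-1 at 24 h (5.11%), where none was as much lower (3.88% of all genes). None was seen in Kasumi-1 at 6 h, when 6.44% of all genes were as much higher and 2.99% lower. None was seen in NB4 either, where 3.06%, 5.6% and 6.51% of all genes were as much higher and 2.27%, 2.37% and 2.88% lower at 6, 12 and 24 h. At 1.5-fold, 7, 4 and 3 genes were lower and 1, 1 and 3 higher in Kasumi-1 at 6, 12 and 24 h, against 12.2%, 14.7% and 15.1% of all genes lower and 14.6%, 11.4% and 13.5% higher. In NB4, 0, 0 and 1 were lower (8.51%, 9.34% and 11.1% of all genes) and 4, 8 and 0 higher (8.92%, 13.5% and 14.7%).

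In what follows the 4 values of a line are TPM in the order untreated, 6, 12 and 24 h. Cyclin B1 (CCNB1, chr5:68462837-68474072 of hg19), the partner of CDK1 at mitotic entry, stood at 179.4, 163.4, 184.5 and 155.0 TPM in Kasumi-1 and 236.9, 282.1, 294.8 and 161.0 TPM in NB4. NB4 was highest at 12 h and lowest at 24 h, and the Kasumi-1 values stayed within a narrow band. Cyclin B2 (CCNB2), its Golgi-associated relative, stood at 191.2, 122.3, 155.9 and 150.2 TPM in Kasumi-1 and 231.5, 262.5, 268.8 and 203.0 TPM in NB4. Cyclin A2 (CCNA2), which works in S phase and G2, stood at 152.4, 113.9, 107.8 and 106.8 TPM in Kasumi-1 and 213.5, 231.9, 226.7 and 171.3 TPM in NB4. All 3 cyclins were at their lowest in NB4 at 24 h, and cyclin A2 was below untreated in every treated Kasumi-1 library.

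CDK1 (chr10:62538089-62554610), the kinase itself, was 173.4, 120.6, 111.6 and 128.1 TPM in Kasumi-1 and 176.9, 245.0, 226.6 and 207.2 TPM in NB4. Every treated Kasumi-1 library was below the untreated one and every treated NB4 library above its own. CDC25B (chr20:3767578-3786762), the phosphatase that starts CDK1 activation, was 60.9, 118.8, 125.2 and 145.8 TPM in Kasumi-1 and 93.1, 105.8, 126.7 and 90.7 TPM in NB4. It was the member furthest above untreated in Kasumi-1 at each time, at a TPM ratio of 2.39 at 24 h, whereas NB4 was at 0.974 times its untreated level then. CDC25C, which completes the activation, was 29.3, 21.7, 22.8 and 27.2 TPM in Kasumi-1 and 16.1, 19.4, 15.2 and 14.6 TPM in NB4. CDK1 and CDC25B thus differed from their untreated libraries in opposite directions within Kasumi-1.

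The APC/C genes among the 43 are CDC20, UBE2C and PTTG1. CDC20, the mitotic coactivator, stood at 244.2, 241.7, 297.4 and 190.5 TPM in Kasumi-1 and 205.9, 276.2, 270.4 and 146.1 TPM in NB4. Both lines had a higher value at 12 h than untreated and their lowest at 24 h. UBE2C, the E2 enzyme that starts the ubiquitin chain, stood at 246.7, 200.3, 221.2 and 163.2 TPM in Kasumi-1 and 89.4, 123.7, 124.2 and 80.2 TPM in NB4. PTTG1 (securin), the anaphase inhibitor that the complex destroys, stood at 170.9, 100.9, 142.3 and 133.0 TPM in Kasumi-1 and 161.0, 220.2, 244.2 and 166.3 TPM in NB4. UBE2C and PTTG1 were below untreated in every treated Kasumi-1 library, and PTTG1 above it in every treated NB4 library. The copies PTTG2 and PTTG3P reached at most 0.170 and 0.169 TPM and CDC20P1 at most 1.58 TPM, so little signal went to them, though reads could have been split.

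Among the mitotic kinases, PLK1 (chr16:23688977-23701688), which acts on centrosomes, kinetochores and cytokinesis, was 181.2, 156.5, 179.4 and 142.4 TPM in Kasumi-1 and 229.4, 296.5, 305.2 and 171.3 TPM in NB4. AURKA, the centrosome and spindle kinase that also activates PLK1, was 110.6, 97.9, 121.6 and 101.3 TPM in Kasumi-1 and 114.5, 189.1, 203.8 and 115.6 TPM in NB4. AURKB, the kinase of the chromosomal passenger complex that corrects faulty attachments, was 50.4, 52.0, 51.4 and 52.4 TPM in Kasumi-1 and 89.1, 111.3, 112.2 and 116.9 TPM in NB4. AURKA was more than 1.5-fold above untreated in NB4 at 6 and 12 h and back near its untreated level at 24 h. AURKB kept to 50.4 to 52.4 TPM in Kasumi-1 and had its highest NB4 value at 24 h, which no other member did. The checkpoint kinases BUB1 and TTK (MPS1) ran 152.5, 108.8, 139.3 and 139.3 TPM in Kasumi-1 and 128.7, 148.3, 160.6 and 99.4 TPM in NB4 for BUB1, and 55.1, 46.9, 48.5 and 55.2 TPM in Kasumi-1 and 54.7, 62.9, 55.2 and 42.9 TPM in NB4 for TTK. Both were at their lowest in NB4 at 24 h.

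BUB3 and MAD2L1, of the spindle checkpoint, did not take the NB4 course described above. BUB3 (chr10:124913793-124924886), the WD40 adaptor that brings BUB1 and BUBR1 to kinetochores, was 333.8, 216.0, 237.1 and 258.6 TPM in Kasumi-1 and 470.9, 434.0, 420.4 and 375.0 TPM in NB4. MAD2L1 (MAD2), the checkpoint effector that captures CDC20, was 54.0, 33.5, 37.6 and 33.7 TPM in Kasumi-1 and 70.7, 65.9, 65.8 and 54.2 TPM in NB4. Both were below untreated in all 6 treated libraries, as was MYBL2, and 16.9% of all genes were. BUB1B (BUBR1), the other CDC20 inhibitor, was 41.8, 38.0, 36.3 and 37.1 TPM in Kasumi-1 and 82.3, 97.4, 89.1 and 66.3 TPM in NB4, with every Kasumi-1 value under every NB4 value.

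**Figure D3:**
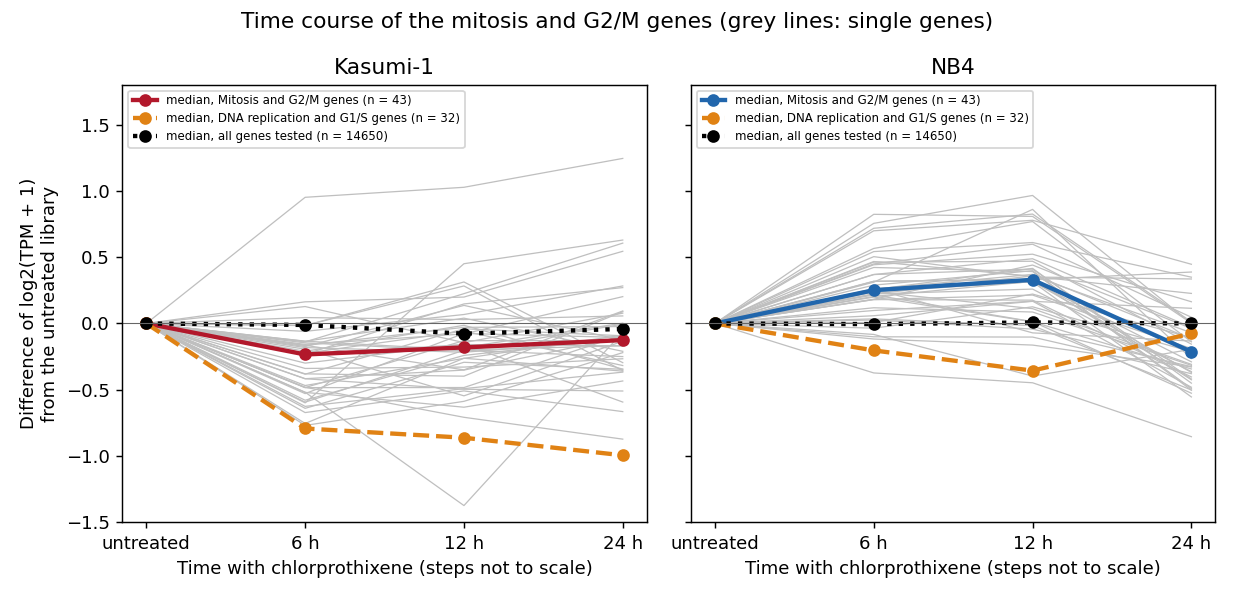
Time courses of the 43 genes in Kasumi-1 (left) and NB4 (right): difference of log2(TPM + 1) from the untreated library (y axis) by hours with chlorprothixene (x axis). Grey lines are single genes, the solid line is their median, the dashed line the median of 32 DNA replication and G1/S genes and the dotted line that of all 14650 genes tested. In Kasumi-1 CDC25B ends highest (1.25) and FOXM1 dips at 12 h (-1.37), and in NB4 CKAP2 ends lowest (-0.85). Steps on the x axis are not to scale.

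At the kinetochore and centromere, all 5 members were below untreated in Kasumi-1 at 6 h and in NB4 at 24 h, and all 5 were above untreated in NB4 at 6 h. CENPA, the centromeric histone H3 variant, was 39.2, 33.2, 43.5 and 47.5 TPM in Kasumi-1 and 40.9, 51.2, 51.8 and 30.2 TPM in NB4. CENPE, a kinesin that carries chromosomes to the spindle equator, was 45.9, 45.4, 57.3 and 37.2 TPM in Kasumi-1 and 38.9, 46.6, 52.2 and 28.2 TPM in NB4. NDC80 and NUF2, subunits of the NDC80 complex that holds microtubules, were 64.6, 42.9, 54.5 and 59.7 TPM in Kasumi-1 and 52.0, 53.3, 51.4 and 36.4 TPM in NB4 for NDC80, and 43.3, 38.1, 37.1 and 39.6 TPM in Kasumi-1 and 60.9, 71.2, 78.4 and 58.0 TPM in NB4 for NUF2. CENPF, a large farnesylated kinetochore protein, was 55.4, 47.0, 49.5 and 49.2 TPM in Kasumi-1 and 64.3, 68.9, 72.4 and 45.8 TPM in NB4. NUF2 lay lower in Kasumi-1 than in NB4 under every condition, and NDC80 lay higher in Kasumi-1 in 3 of the 4.

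The mitotic kinesins were more uneven. KIF11 (Eg5), which pushes the spindle poles apart, stood at 79.3, 46.1, 52.4 and 67.9 TPM in Kasumi-1 and 87.1, 112.8, 122.5 and 85.2 TPM in NB4. It was the member furthest below untreated in Kasumi-1 at 6 h, at -0.77 on the log2 scale. KIF14, which acts in cytokinesis, stood at 24.8, 23.7, 26.0 and 30.3 TPM in Kasumi-1 and 21.7, 39.2, 38.7 and 21.7 TPM in NB4 and was the member furthest above untreated in NB4 at 6 h, at 0.82. KIF20A and KIF23 (MKLP2 and MKLP1), kinesins of the central spindle, ran between 41.6 and 46.9 TPM in Kasumi-1 and 36.1 and 68.2 TPM in NB4 for KIF20A. For KIF23 the values were 48.3, 52.9, 43.6 and 51.0 TPM in Kasumi-1 and 59.8, 71.8, 77.6 and 55.1 TPM in NB4. KIF2C (MCAK), which depolymerises microtubules at centromeres, stood at 160.3, 122.7, 155.8 and 150.2 TPM in Kasumi-1 and 120.9, 123.1, 117.3 and 96.2 TPM in NB4.

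Spindle assembly genes held the member furthest below untreated in NB4 at 24 h. That was CKAP2, a microtubule-binding protein of spindle poles, at 78.7, 51.6, 107.9 and 122.3 TPM in Kasumi-1 and 143.8, 110.8, 105.2 and 79.1 TPM in NB4. CKAP2 was below untreated at every time in NB4, and in Kasumi-1 it was below at 6 h and above at 12 and 24 h. ASPM, the spindle pole protein, stood at 27.3, 24.7, 32.1 and 42.1 TPM in Kasumi-1 and 24.9, 37.4, 43.2 and 22.5 TPM in NB4, above untreated at 12 and 24 h in Kasumi-1 and at 6 and 12 h in NB4. NUSAP1, which binds microtubules near chromosomes, stood at 83.5, 60.1, 69.4 and 78.5 TPM in Kasumi-1 and 142.0, 201.8, 181.3 and 179.5 TPM in NB4, so that every NB4 library lay above every Kasumi-1 library. PRC1, the bundler of the central spindle, stood at 91.8, 82.8, 79.4 and 91.4 TPM in Kasumi-1 and 96.5, 131.6, 139.1 and 108.2 TPM in NB4. DLGAP5 (HURP), a RAN-regulated fibre stabiliser, stood at 78.8, 54.3, 74.7 and 73.1 TPM in Kasumi-1 and 66.2, 82.3, 120.9 and 54.9 TPM in NB4, with the widest step of all members between 12 and 24 h in NB4 (-1.13). TPX2, which activates AURKA, stood at 196.0, 154.7, 155.8 and 162.8 TPM in Kasumi-1 and 170.2, 193.0, 192.4 and 128.4 TPM in NB4, and HMMR (RHAMM) at 85.5, 76.2, 66.8 and 91.3 TPM in Kasumi-1 and 57.6, 67.3, 69.1 and 44.5 TPM in NB4.

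For cytokinesis and the passenger complex, ANLN (anillin), the scaffold of the contractile ring, was above untreated in all 6 treated libraries, as AURKB was and as 12.9% of all genes were. Its values were 38.7, 43.5, 44.6 and 56.9 TPM in Kasumi-1 and 54.6, 89.3, 94.4 and 74.8 TPM in NB4. ECT2, the exchange factor that activates RhoA at the division plane, was 40.9, 35.6, 27.7 and 37.2 TPM in Kasumi-1 and 47.8, 81.4, 94.3 and 47.8 TPM in NB4. ECT2 was the member furthest above untreated in NB4 at 12 h, at 0.97 on the log2 scale, and it was back at its untreated level at 24 h. RACGAP1, the centralspindlin subunit that recruits ECT2, was 76.2, 68.2, 72.1 and 87.8 TPM in Kasumi-1 and 107.5, 104.8, 117.3 and 92.5 TPM in NB4. BIRC5 (survivin), the passenger subunit that also counts among the inhibitors of apoptosis, was 61.8, 40.6, 53.6 and 51.8 TPM in Kasumi-1 and 42.3, 44.1, 47.7 and 45.9 TPM in NB4. CDCA8 (borealin), its companion, was 115.1, 98.3, 110.5 and 92.1 TPM in Kasumi-1 and 105.0, 122.0, 106.0 and 72.6 TPM in NB4. BIRC5 was below untreated in each treated Kasumi-1 library and above it in each treated NB4 library, by small steps in NB4.

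TOP2A, the topoisomerase that untangles sister chromatids, was 298.6, 213.2, 213.3 and 281.2 TPM in Kasumi-1 and 204.1, 240.8, 254.3 and 166.8 TPM in NB4. MKI67 (Ki-67), the proliferation antigen that coats mitotic chromosomes, was 41.7, 31.8, 31.4 and 44.5 TPM in Kasumi-1 and 63.3, 92.6, 97.2 and 80.9 TPM in NB4. In NB4 MKI67 was above untreated at every time, and in Kasumi-1 both genes were lower at 6 and 12 h and near or above untreated at 24 h.

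The transcription factors of the programme followed different courses. FOXM1 (chr12:2966847-2986206), the forkhead factor of the G2 wave, was 93.8, 65.2, 35.6 and 89.6 TPM in Kasumi-1 and 45.8, 46.0, 53.6 and 42.4 TPM in NB4. The Kasumi-1 library of 12 h stood alone, at the lowest log2 difference of any member in any library (-1.37), with 24 h back near untreated. MYBL2 (chr20:42295754-42345136), which joins the MuvB core ahead of FOXM1, was 231.1, 165.3, 141.1 and 125.8 TPM in Kasumi-1 and 333.7, 315.0, 253.2 and 291.4 TPM in NB4. It was lower at each later time in Kasumi-1, where it was furthest below untreated of the 43 at 24 h (-0.87), and it was highest untreated in NB4 too. FOXM1 overlaps RHNO1 (25.3 to 39.6 TPM) and ITFG2 (22 to 39.6 TPM) on the opposite strand. CDC25C overlaps FAM53C, and KIF20A overlaps BRD8 and CDC23, each more abundant than the member on average. CCNA2 likewise overlaps EXOSC9 on the opposite strand, while BUB1B overlaps PAK6 and CENPA overlaps SLC35F6 on the same strand. Strand-specific counting is not stated, and the part of such neighbours in these values was not tested.

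**Figure D4:**
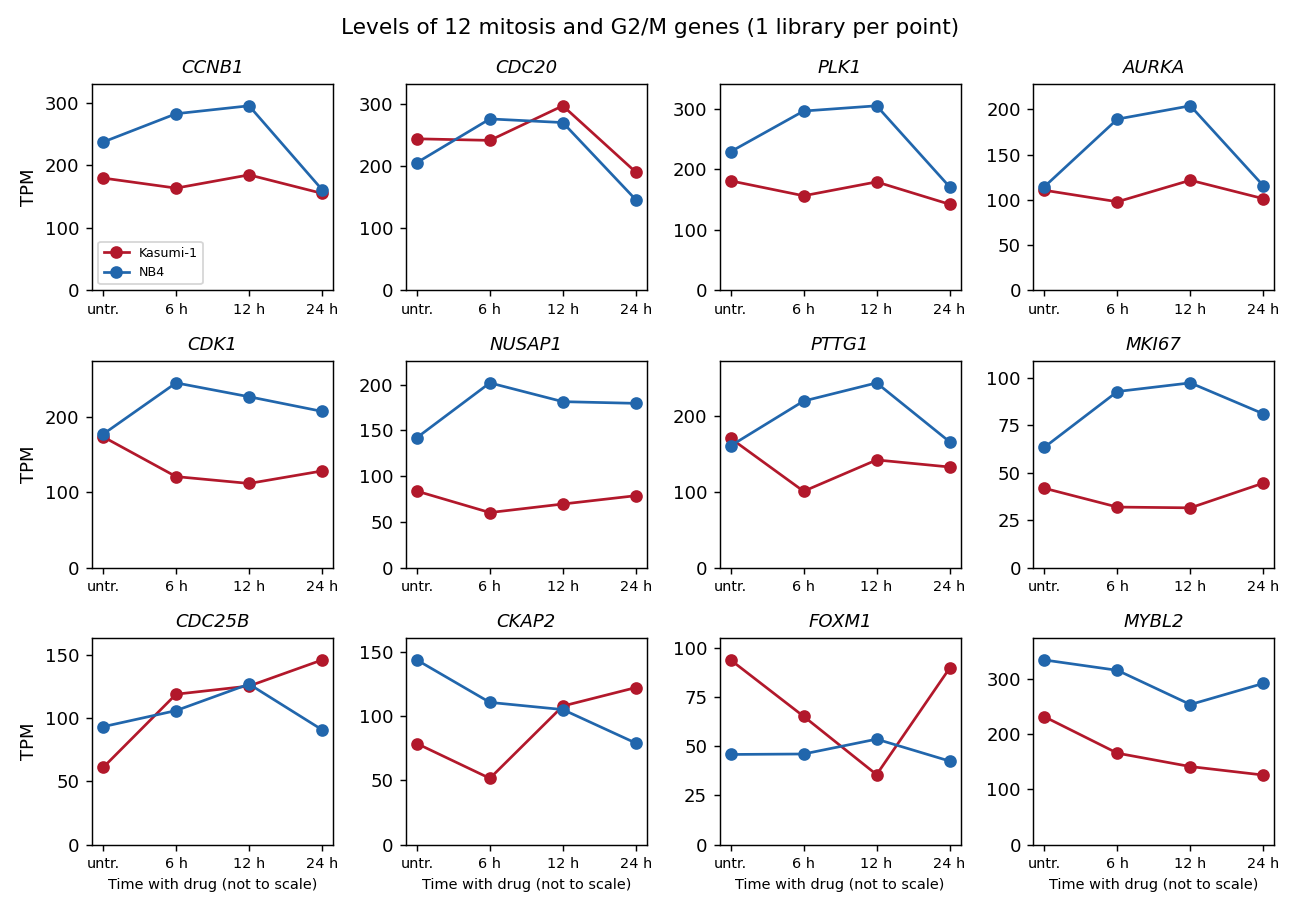
TPM of 12 of the genes, a panel each (y axis, from 0) by hours with chlorprothixene (x axis), Kasumi-1 and NB4, 1 library per point. CDC25B reaches 145.8 TPM in Kasumi-1 at 24 h, against 60.9 TPM untreated, and FOXM1 is at 35.6 TPM in Kasumi-1 at 12 h alone, against 93.8 TPM untreated.

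No member's response passed a test across all genes. In limma's moderated test of the mean of the 3 times against untreated, with the lines as repeats, 0 of the 43 were called at an adjusted p of 0.05 (0.0273% of all genes were called higher and 0% lower), while with p under 0.05 before adjustment CDC25B and ANLN were higher (2 of 43, against 9.3% of all genes) and BUB3, MAD2L1 and MYBL2 lower (3 of 43, against 11.1%). At 24 h against 6 h, 0 were called (0% of all genes in either direction) and with p under 0.05 before adjustment 0 were higher (4.05% of all genes) and CDC20 and CENPE lower (2 of 43, against 3.82%). CDC20 differed by -0.63 (SE 0.18, adjusted p = 0.554) and was lower at 24 h than at 6 h in both lines. These p-values measure how alike the lines moved, not the spread between cultures.

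Within a line, with the times as repeats, limma called 0 of the 43 in Kasumi-1 (0.205% of all genes higher and 0.109% lower) and 0 in NB4 (0.621% higher and 0.177% lower). With p under 0.05 before adjustment, 1 was higher and 5 lower in Kasumi-1 (8.18% and 12% of all genes), and 2 were higher and 0 lower in NB4 (8.3% and 6.86%). CDC25B in Kasumi-1 came nearest, 1.08 above untreated (SE 0.22, adjusted p = 0.0811), higher in 3 of 3 libraries. MYBL2 was at -0.69 (SE 0.20, adjusted p = 0.131), MAD2L1 at -0.62 (SE 0.18, adjusted p = 0.134) and CDK1 at -0.53 (SE 0.16, adjusted p = 0.143), each lower in 3 of 3. In NB4 ANLN was at 0.64 (SE 0.22, adjusted p = 0.234) and AURKB at 0.35 (SE 0.14, adjusted p = 0.314), each higher in 3 of 3. All of these rest on 1 untreated library per line.

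The difference between the lines' responses was tested as an interaction, the mean response in Kasumi-1 minus that in NB4, and limma called 0 of the 43 (0.041% of all genes higher and 0.0887% lower), and with p under 0.05 before adjustment 1 was higher (4.22% of all genes) and 2 lower (6.37%). The members with the lowest differences were CDK1 at -0.88 (SE 0.23, adjusted p = 0.308), ECT2 at -0.87 (adjusted p = 0.593) and PTTG1 at -0.82 (adjusted p = 0.49). CDC25B was highest at 0.88 (SE 0.31, adjusted p = 0.397), followed by CKAP2 and, at 0.03, RACGAP1. The median over the members was -0.31, against -0.06 over all genes tested. The mean response includes 24 h, when most members were below untreated in both lines as deposited. After rescaling, 18 of the 43 were below untreated in Kasumi-1 at 24 h (43.7% of all genes). The courses at 6 and 12 h were not tested by themselves. Without the NB4 library of 24 h, 11 members were lower and 1 higher at limma p under 0.05 before adjustment (6.45% and 4.2% of all genes). Without the Kasumi-1 library of 24 h, 4 were lower and 1 higher (7.15% and 5.23%). The other fits gave fewer lower members. Leaving out NB4 at 6 h gave 1 lower and 1 higher (6.16% and 3.82%), and NB4 at 12 h 1 and 1 (4.49% and 3.34%). Leaving out Kasumi-1 at 6 h gave 2 lower and 2 higher (7.57% and 4.52%), and Kasumi-1 at 12 h 1 and 1 (5.15% and 3.75%). In each of these fits 0 members were called.

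The members called between the lines were mostly lower in Kasumi-1. Over the 4 matched conditions, limma called 22 of the 43 at an adjusted p of 0.05, and 8114 of all 14650 genes. The members were thus called no more often than genes in general. Of the 43, 20 were lower in Kasumi-1 than in NB4, against 27.5% of all genes, and 2 were higher, against 27.8%. The 4 conditions served as repeats here, so p measures the spread over conditions and not over cultures. The lower ones spanned the kinases, the checkpoint, the cyclins, cytokinesis and MYBL2. NUSAP1 differed by -1.26 (SE 0.17, adjusted p = 0.000741), MKI67 by -1.14 (SE 0.19, adjusted p = 0.00242), BUB1B by -1.10 (SE 0.13, adjusted p = 0.000471) and AURKB by -1.04 (SE 0.11, adjusted p = 0.000294). MYBL2 differed by -0.87 (SE 0.13, adjusted p = 0.00147) and CCNA2 by -0.81 (SE 0.13, adjusted p = 0.00209), and each of these 6 was lower in Kasumi-1 under 4 of 4 conditions. The 2 that were higher were UBE2C at 0.997 (SE 0.15, adjusted p = 0.00122) and CDC25C at 0.60 (SE 0.16, adjusted p = 0.0177).

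The other 14 called genes were also lower in Kasumi-1. ECT2, NUF2, ANLN, KIF11, BUB3, MAD2L1, CDK1, CCNB2, PLK1, AURKA, CCNB1, RACGAP1, PRC1 and KIF23 lay between -0.87 and -0.42 (adjusted p from 0.00291 to 0.0485, limma). Every Kasumi-1 library lay below every NB4 library for 16 of the 43 (22.8% of all genes) and above for 2, UBE2C and CDC25C (24.5%). After rescaling the numbers were 11 below (20.4% of all genes) and 4 above (27.1%). On that scale limma called 15 lower and 3 higher, and in all 8242 of 15052 genes. At the untreated libraries alone, 25 of the 43 were lower in Kasumi-1, against 47.4% of all genes. The called genes were unlike there. Untreated, CDK1 stood at 173.4 TPM in Kasumi-1 and 176.9 TPM in NB4, but NUSAP1 at 83.5 and 142.0 TPM. The differences of the 21 genes not called ran from -0.53 for PTTG1 (limma adjusted p = 0.0562) to 0.50 for FOXM1. CDC20, TOP2A, TPX2, BUB1, TTK and BIRC5 were also among them. Without the NB4 or the Kasumi-1 library of 12 h the count was 12 of the 43, beside 6444 of the 14650 genes in each fit. Without the NB4 or the Kasumi-1 library of 6 h it was 14 of the 43, beside 6646 and 6661 of the 14650. Of the 22, 11 were called in all 14 alternative fits: ANLN, AURKB, BUB1B, BUB3, CCNA2, MAD2L1, MKI67, MYBL2, NUF2, NUSAP1 and UBE2C. These fits are not 14 separate checks. Leaving out either line's library of the same time gave the same line estimate, and the filter settings left the estimate unchanged. The like count over all genes was not made.

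**Figure D5:**
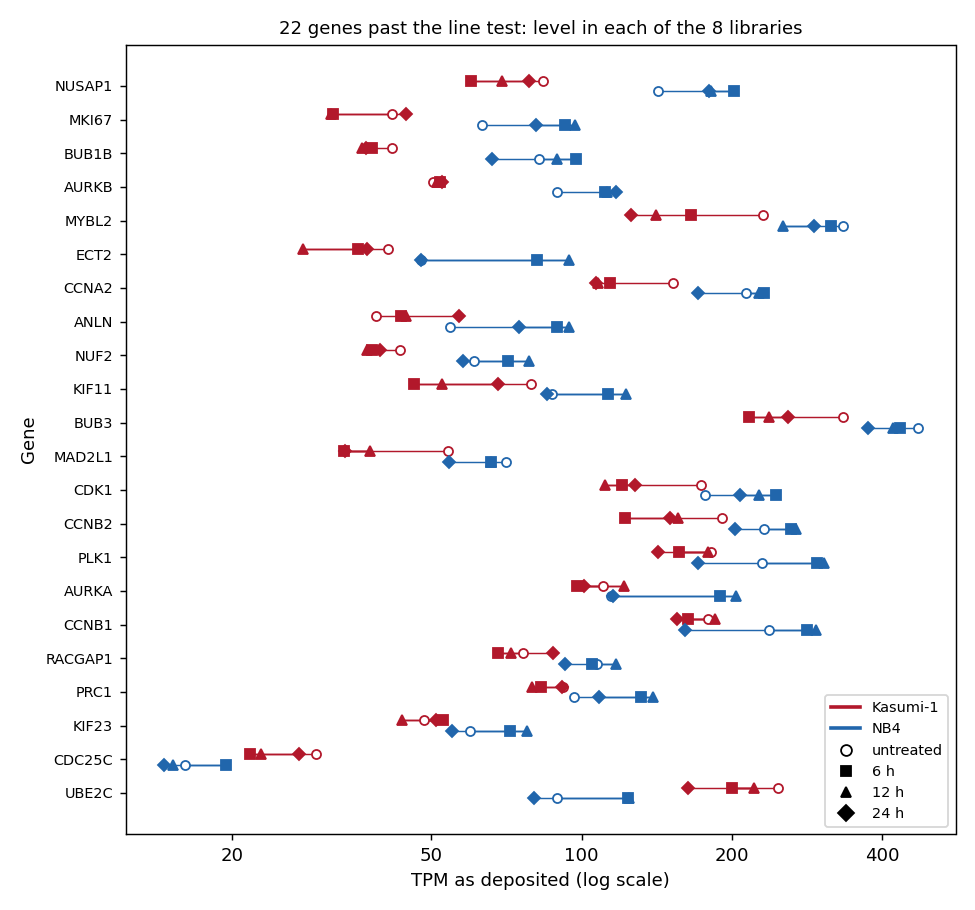
TPM (log axis) of the 22 genes past the line test, 1 point per library, Kasumi-1 above NB4 in each row. UBE2C and CDC25C lie to the right in Kasumi-1, and 20 genes have their lower mean there. AURKB spans 50.4 to 52.4 TPM in Kasumi-1 and 89.1 to 116.9 TPM in NB4.

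Genes of the same pathway that are not among the 43 were taken as 6 further lists. Other mitotic genes (54 listed, 49 tested) had median differences from untreated of -0.24, -0.24 and -0.09 for Kasumi-1 and 0.22, 0.24 and -0.07 for NB4. The medians of the 43, given above, had the same signs. In the shared response limma called 0 of the 49, with 1 higher and 3 lower at p under 0.05 before adjustment (9.3% and 11.1% of all genes). In the response difference it called 0, with 0 higher and 9 lower before adjustment (4.22% and 6.37%). UBE2S, the E2 that extends the chains begun by UBE2C, was 400.7, 490.4, 595.4 and 412.3 TPM in Kasumi-1 and 432.1, 704.0, 876.8 and 627.5 TPM in NB4, and the kinetochore gene CENPI was 19.8, 16.9, 19.1 and 22.4 TPM in Kasumi-1 and 10.4, 24.2, 27.5 and 23.1 TPM in NB4. CENPM, also of the inner kinetochore, was 100.8, 55.0, 41.5 and 60.9 TPM in Kasumi-1 and 54.1, 40.4, 34.8 and 41.9 TPM in NB4, and MIS18A, which helps to load CENPA, was 70.1, 41.4, 36.7 and 39.1 TPM in Kasumi-1 and 72.8, 63.6, 62.5 and 47.5 TPM in NB4. The first pair lay above untreated in NB4 at all times, and the second pair lay below untreated in all 6 treated libraries.

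Condensin and cohesin genes (13 tested), whose rings shape and hold chromosomes, had medians of -0.42, -0.38 and -0.35 for Kasumi-1 and 0.12, 0.01 and -0.19 for NB4. The condensin subunit NCAPH was 148.2, 74.4, 85.8 and 85.8 TPM in Kasumi-1 and 150.2, 149.5, 123.4 and 119.1 TPM in NB4, and the cohesin subunit SMC1A was 154.6, 128.1, 96.6 and 65.4 TPM in Kasumi-1 and 156.5, 195.2, 146.4 and 110.5 TPM in NB4. STAG1, another cohesin subunit, and NCAPH2, of condensin II, lay between 32.5 and 44.9 TPM and between 64.3 and 77.7 TPM in Kasumi-1. In the shared response limma called 0 of 13, with 0 higher and 3 lower at p under 0.05 before adjustment (9.3% and 11.1% of all genes). The APC/C core and its inhibitors (17 tested, 0 called, 0 higher and 6 lower before adjustment in limma, p under 0.05, against 9.3% and 11.1% of all genes) had medians of -0.37, -0.40 and -0.32 for Kasumi-1 and -0.01, -0.15 and -0.28 for NB4. ANAPC7, a scaffold subunit, was 175.0, 104.2, 85.2 and 121.7 TPM in Kasumi-1 and 132.4, 96.4, 69.7 and 80.9 TPM in NB4, and FZR1 (CDH1), the coactivator that takes over from CDC20, was 30.1, 39.9, 38.0 and 34.0 TPM in Kasumi-1 and 23.2, 30.2, 26.7 and 29.3 TPM in NB4. ANAPC15, needed to release the checkpoint from the complex, was 47.3, 35.8, 28.2 and 31.4 TPM in Kasumi-1 and 108.6, 88.9, 66.6 and 60.9 TPM in NB4, and ANAPC16, a small core subunit, was 55.0, 72.6, 62.2 and 76.7 TPM in Kasumi-1 and 64.4, 76.03, 79.6 and 65.3 TPM in NB4.

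The regulators of the programme leaned below untreated in Kasumi-1 as deposited and went both ways in NB4. Of the 22 tested, 13, 18 and 18 were below untreated in Kasumi-1 at 6, 12 and 24 h (50.9%, 56.3% and 53.4% of all genes). The medians there were -0.15, -0.26 and -0.34. In NB4 12, 12 and 11 were below (50.5%, 47.1% and 49.5%). The genes named below are the 2 most changed each way. Of 22 genes for the DREAM and MuvB complexes, E2F factors and NF-Y, limma called 0 in the shared response, with 1 higher and 3 lower at p under 0.05 before adjustment (9.3% and 11.1% of all genes). E2F2, an activator E2F, was 28.8, 12.1, 12.5 and 17.5 TPM in Kasumi-1 and 15.9, 12.1, 10.5 and 21.0 TPM in NB4, and NFYB, an NF-Y subunit, was 48.0, 33.7, 29.2 and 38.4 TPM in Kasumi-1 and 45.6, 32.7, 30.8 and 28.0 TPM in NB4. E2F3, another activator, was 40.8, 49.6, 42.1 and 42.6 TPM in Kasumi-1 and 43.5, 75.8, 76.1 and 71.1 TPM in NB4, and RB1, the retinoblastoma protein, was 74.3, 80.2, 67.5 and 70.7 TPM in Kasumi-1 and 39.7, 46.8, 55.3 and 45.6 TPM in NB4. NFYB was below untreated in all 6 treated libraries and E2F3 above it in all 6.

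Of 15 inhibitors of G2/M entry, 12 were tested and limma called 0 in the shared response, with 3 higher and 0 lower at p under 0.05 before adjustment (9.3% and 11.1% of all genes). CDKN1A (p21), which inhibits cyclin-dependent kinases, was 8.81, 37.3, 49.0 and 12.4 TPM in Kasumi-1 and 0.344, 7.88, 23.5 and 30.1 TPM in NB4. It showed the largest mean log2 differences from untreated, 1.59 in Kasumi-1 and 3.81 in NB4 (shared response 2.70, SE 0.69, adjusted p = 0.119). Its untreated NB4 value was under 1 TPM, and its difference in Kasumi-1 at 24 h was 0.45. BTG2, an antiproliferative gene induced by p53, was 2.25, 9.43, 9.20 and 2.99 TPM in Kasumi-1 and 0.606, 6.03, 14.1 and 12.9 TPM in NB4. WEE1, the kinase that holds CDK1 inactive, was 38.0, 19.2, 19.5 and 34.7 TPM in Kasumi-1 and 32.8, 28.0, 29.1 and 40.4 TPM in NB4, and CDKN1B (p27) was 133.0, 68.6, 66.5 and 86.1 TPM in Kasumi-1 and 46.9, 58.6, 67.5 and 55.5 TPM in NB4. In Kasumi-1 WEE1 and CDKN1B were below untreated at every time and furthest at 6 and 12 h, the libraries in which CDKN1A and BTG2 were highest there.

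The genes of the preceding phase had larger median differences in Kasumi-1. The medians of the 43 at 6, 12 and 24 h, given above, were -0.23, -0.18 and -0.13 for Kasumi-1 and 0.25, 0.33 and -0.21 for NB4. Those of 32 DNA replication and G1/S genes were -0.79, -0.86 and -0.99 for Kasumi-1 and -0.20, -0.36 and -0.08 for NB4. At 6 h in NB4, 5 of the 43 mitosis and G2/M genes but 25 of the 32 replication genes were below untreated (50.5% of all genes). In the shared response limma called 0 of the 32, with 0 higher and 20 lower at p under 0.05 before adjustment (9.3% and 11.1% of all genes). Before adjustment 26 of the 32 were lower within Kasumi-1 (12% of all genes) and 6 within NB4 (6.86%). Within Kasumi-1 it called 1, MCM2, a subunit of the replicative helicase, which fell by 1.35 on the log2 scale (SE 0.19, adjusted p = 0.0443). MCM5, of the same helicase, was 167.2, 86.9, 82.5 and 65.4 TPM in Kasumi-1 and 132.3, 75.5, 60.7 and 100.2 TPM in NB4. The G1/S cyclins CCNE1 and CCNE2 were 43.1, 33.5, 24.6 and 20.5 TPM in Kasumi-1 and 23.6, 32.1, 23.3 and 39.5 TPM in NB4 for CCNE1, and 18.6, 14.4, 10.0 and 8.09 TPM in Kasumi-1 and 9.49, 14.9, 13.2 and 24.9 TPM in NB4 for CCNE2. Both were below untreated in Kasumi-1 at every time and at their highest in NB4 at 24 h, when the mitotic cyclins were at their lowest there. No test was made of the difference between the lists.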

How the data were processed

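Total RNA of 8 cultures, 4 each of Kasumi-1 and NB4, was sequenced after an Illumina TruSeq preparation, per the labels' protocols. The submitters' processing notes name HISAT2, StringTie and the build hg19. Their versions and the strand setting are not given in the sources consulted. The deposited TPM values are abundances scaled for length and to 1 sum per library, the deposited FPKM values are scaled for length and depth, and the deposited coverage is the mean read signal of a gene, per the file headers. The tables hold no counts, so the depth in reads is unknown and no count test was run; the ratio of coverage to FPKM, which follows depth, ran from 7.23 to 9.83.

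Rows were summed by gene name (57820 IDs, 55765 symbols). Tests used limma 3.58.1 in R 4.3.3, with an intensity trend, on log2(TPM + 1) for the 14650 genes whose mean reached 1 TPM; fold changes on this scale understate those of low genes. The shared response, 24 h against 6 h and the line difference came from an additive model of line and time (3 residual degrees of freedom). The response difference and the within-line responses came from a model of line and treatment (4 residual degrees of freedom). Benjamini-Hochberg adjustment ran over all genes tested, with a threshold of 0.05. Gene names follow a rule: 14 central members, the 3 most changed each way at 24 h per line and in the response difference, every member past a test, and 2 genes each way per other list. The latter were ranked by mean change over the 6 treated libraries, among genes with at least 5 TPM in a library of each line. Values of the remaining members were added after they were seen. Alternatives were the pseudocount, the filter, FPKM, rescaled TPM, quantile normalization, a 1.5-fold limit and leaving out each library. The members and lists were chosen with earlier results of these data known. Python 3.11.15, pandas 2.3.3 and matplotlib 3.10.9 made the summaries and plots. One list of marker genes is not reported here.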

Additional observations from a re-analysis of the deposited data

Results flagged for a closer look

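CDK1, PRC1, ECT2, NUSAP1, BIRC5 and PTTG1 were below untreated at all 3 times in Kasumi-1 and above untreated at all 3 times in NB4, as 6.7% of all genes tested were. The mean response in Kasumi-1 minus that in NB4 was -0.88 for CDK1 (limma adjusted p = 0.308), -0.50 for PRC1 (adjusted p = 0.555), -0.87 for ECT2 (adjusted p = 0.593), -0.67 for NUSAP1 (adjusted p = 0.429), -0.46 for BIRC5 (adjusted p = 0.601) and -0.82 for PTTG1 (adjusted p = 0.49), and none passed the test of that difference. At 24 h PRC1 in Kasumi-1 was at 0.996 times its untreated TPM, and ECT2 in NB4 at 1.0002 times. The place of both genes in this pattern thus rests on very small differences. With rescaled TPM 3 of the 43 genes took this pattern, as did 5.42% of all genes. The reverse pattern, above untreated at all 3 times in Kasumi-1 and below in NB4, was taken by 0 of the 43 and by 4.92% of all genes.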

How the results depend on the processing

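No called difference changed sign under the alternatives run. The number of members called in the line difference, 22 with all libraries, ran from 12 to 21 when 1 library was left out. It was 12 without either library of 12 h and 14 without either library of 6 h. Of all 14650 genes, 8114 were called with all libraries and 6444 without either library of 12 h. Without the NB4 or the Kasumi-1 library of 6 h, 6646 and 6661 were called. Of the 22 calls, 11 were kept in all 14 alternative fits, several of which give the same line estimate. With quantile normalization 1 gene was at least 2-fold changed in Kasumi-1 at 6 h, where none was before. A limit of 1.5-fold gave, at 6, 12 and 24 h, 8, 5 and 6 genes for Kasumi-1 and 4, 8 and 1 for NB4. The median in Kasumi-1 at 24 h was 0.0164 with rescaled TPM and -0.0109 with quantile normalization, against -0.13 as deposited, and 18 genes in place of 31 were then below untreated with rescaled TPM, an alternative count added after seeing the data. Rescaling put the median of all genes in that library at 0.07, against -0.04 as deposited. The adjusted p of CDC25B within Kasumi-1 ran from 0.07 to 0.287 and that of CDK1 in the response difference from 0.132 to 0.873. No paired analysis was possible because each condition holds 1 library, so that replicate numbers pair nothing; the line difference matches libraries by time. The within-line and response tests could not be fitted without the untreated library of the line concerned. With 1 library per condition, no value has a spread between cultures.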
